A study of Mus musculus with 34 samples.

Results

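The methylation of CpG islands on the 2 arrays labelled kidney was set against that on 14 arrays of 7 other adult mouse tissues (brain, colon, liver, lung, muscle, pancreas and spleen, 2 arrays each). These 16 arrays are part of a series of 34. All 16 samples were tissues of C57Bl/6 mice at 3 months of age, and no treatment or allele is named for any of them. Kidney replicate 1 was labelled female and replicate 2 male, as were spleen, brain, liver and muscle, whereas both colon and both pancreas arrays were labelled male and both lung arrays female. Arrays are called here by their label and replicate number (kidney 1, kidney 2, spleen 1, spleen 2). The labels name organs and no sorted cells, so that each value is a mean over the cell types of the sample, which can include blood cells and vessels. Whether a whole organ or a piece was taken is not stated. The labels do not say whether any DNA was pooled from several mice, and p-values therefore measure only the spread between these samples.

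In mDIP, an antibody to methylated cytosine enriches methylated DNA from sheared genomic DNA, and the bound DNA is hybridized beside the input on an array of CpG island probes. Each log ratio of bound to input was put on a Z-score scale within its array, and averaging it over the probes of an island gave an island methylation score (IMS). An IMS near or below 0 marks an island with little bound DNA, and a score of several units one with much. CpG islands are stretches rich in CpG that are mostly unmethylated in every tissue, but a small number inside or beside developmental genes gain methylation in a tissue-specific manner. The kidney forms from intermediate mesoderm under transcription factors such as Pax2, Wt1, Lhx1, Emx2 and the Hox11 genes, and in the adult it consists mainly of tubule epithelium with glomeruli, vessels and stroma. The spleen is made up largely of lymphocytes and other blood cells, which form under factors such as Runx1, Spi1 and Gfi1.

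In all, 13293 autosomal islands of at least 3 probes were scored on each of the 16 arrays, with a median of 6 probes. Of these, 11572 carried a gene name. Positions of islands are those of the array files, which name no genome build.

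A few islands that come up below reach the start of their gene by the array annotation, and the RefSeq sequence around that start shows how the targets of the antibody are spread. The sequences run 5′ to 3′ on the strand of the gene, from 250 bases before to 50 bases after the start (GRCm38.p6), with each CpG in capitals. Hoxa5 (chr6:52204538-52204837, minus strand), a patterning gene, and Krt7 (chr15:101412153-101412452, plus strand), a keratin of simple epithelia, stood high on kidney 1, and Slc36a4 (chr9:15709488-15709787, plus strand), an amino acid transporter, stood high on kidney 2.
Hoxa5: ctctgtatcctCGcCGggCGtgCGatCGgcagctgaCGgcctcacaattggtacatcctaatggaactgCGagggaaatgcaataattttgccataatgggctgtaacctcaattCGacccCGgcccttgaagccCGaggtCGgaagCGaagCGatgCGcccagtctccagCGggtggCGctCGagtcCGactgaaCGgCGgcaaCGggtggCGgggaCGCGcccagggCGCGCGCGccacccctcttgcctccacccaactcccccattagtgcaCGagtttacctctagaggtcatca
Krt7: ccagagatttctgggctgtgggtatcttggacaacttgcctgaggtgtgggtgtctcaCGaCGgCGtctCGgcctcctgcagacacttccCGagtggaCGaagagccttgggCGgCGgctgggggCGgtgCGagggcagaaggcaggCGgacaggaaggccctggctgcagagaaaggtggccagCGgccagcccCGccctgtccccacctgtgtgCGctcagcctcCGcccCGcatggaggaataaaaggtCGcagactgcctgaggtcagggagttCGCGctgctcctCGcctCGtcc
Slc36a4: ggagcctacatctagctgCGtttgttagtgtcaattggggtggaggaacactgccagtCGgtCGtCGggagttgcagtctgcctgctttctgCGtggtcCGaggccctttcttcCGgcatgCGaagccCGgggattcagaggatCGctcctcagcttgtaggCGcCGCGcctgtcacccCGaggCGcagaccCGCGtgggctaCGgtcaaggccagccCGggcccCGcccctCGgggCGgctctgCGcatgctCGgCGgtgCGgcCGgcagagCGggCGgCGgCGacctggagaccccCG
The Hoxa5 sequence holds 29 CpG, the Krt7 sequence 21 and the Slc36a4 sequence 32, against a median of 7 over the 32851 promoter sequences of the same length. As many or more were held by 12.9%, 24.8% and 9.52% of all promoters, respectively. The letters CG read the same on both strands, and no other motif was searched.

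Before any comparison by tissue, the arrays were compared with one another, and neither array labelled kidney had the other as its nearest. Kidney 1 and kidney 2 differed by more than 1 IMS unit at 416 islands (3.13% of all), against a median of 438 over the 8 pairs of the same label and 344.5 over the 112 pairs of different labels. Nearest means here the fewest such islands. Of the 15 other adult arrays, kidney 2 was the 9th nearest to kidney 1, and kidney 1 was the farthest from kidney 2. Kidney 1 was nearest to spleen 2, from which it differed at 80 islands, and kidney 2 was nearest to spleen 1, also with 80 islands. Between spleen 1 and spleen 2, 339 islands differed.

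**Figure D1:**
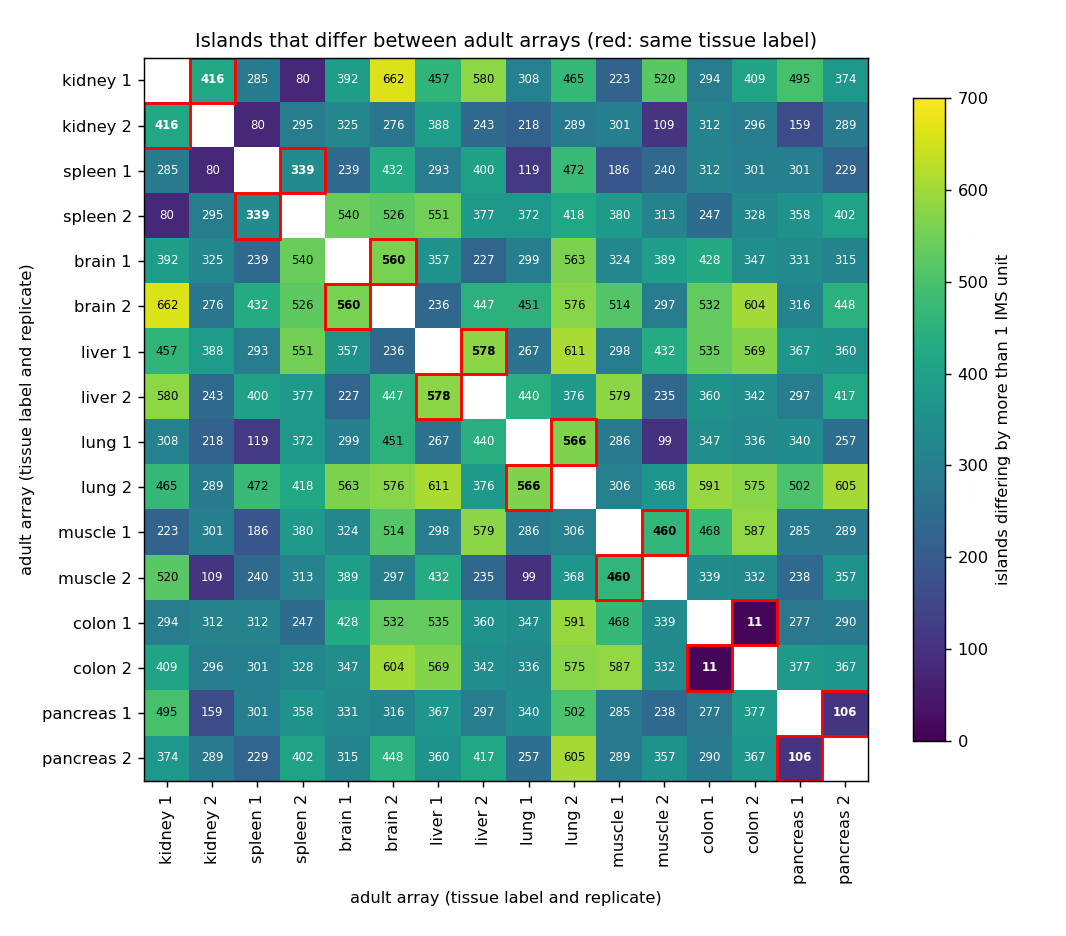
Number of islands, of 13293, whose IMS differed by more than 1 unit between each pair of the 16 adult arrays (both axes: tissue label and replicate number), with pairs of the same tissue label framed in red. Kidney 1 and kidney 2 differed at 416 islands, whereas kidney 1 and spleen 2, and kidney 2 and spleen 1, differed at 80 each.

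Over all islands, Pearson's r was 0.888 between the 2 kidney arrays, 0.951 between kidney 1 and spleen 2 and 0.936 between kidney 2 and spleen 1. Kidney 2, however, had a higher r with muscle 2 (0.945) and pancreas 1 (0.939). The median absolute difference also gave another order. It was 0.14 between kidney 1 and spleen 1, against 0.176 between kidney 1 and spleen 2. Between kidney 2 and muscle 2 it was 0.147, against 0.195 between kidney 2 and spleen 1. These are descriptions over islands that share an array's processing, and not tests. By the count of islands over 1 unit, the other tissues were of both kinds. The colon arrays differed at 11 islands and the pancreas arrays at 106, and each was the nearest array to its partner. In the other 6 tissues no array had its partner nearest: brain 1 was nearest to liver 2 (227 islands, against 560 from brain 2), brain 2 to liver 1 (236 islands) and lung 1 to muscle 2 (99 islands, against 566 from lung 2). Lung 2, however, was nearest to kidney 2 (289 islands) and muscle 1 to spleen 1 (186 islands), so that by this count lung and muscle were not crossed in both directions. The margin was narrow for lung 2, which differed from muscle 1 at 306 islands. Its highest r was with muscle 1 (0.911, against 0.885 with kidney 2), whereas that of muscle 1 was with kidney 1 (0.943). Thus 4 of the 16 adult arrays had the array of their own label as the nearest by the count of islands.

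**Figure D2:**
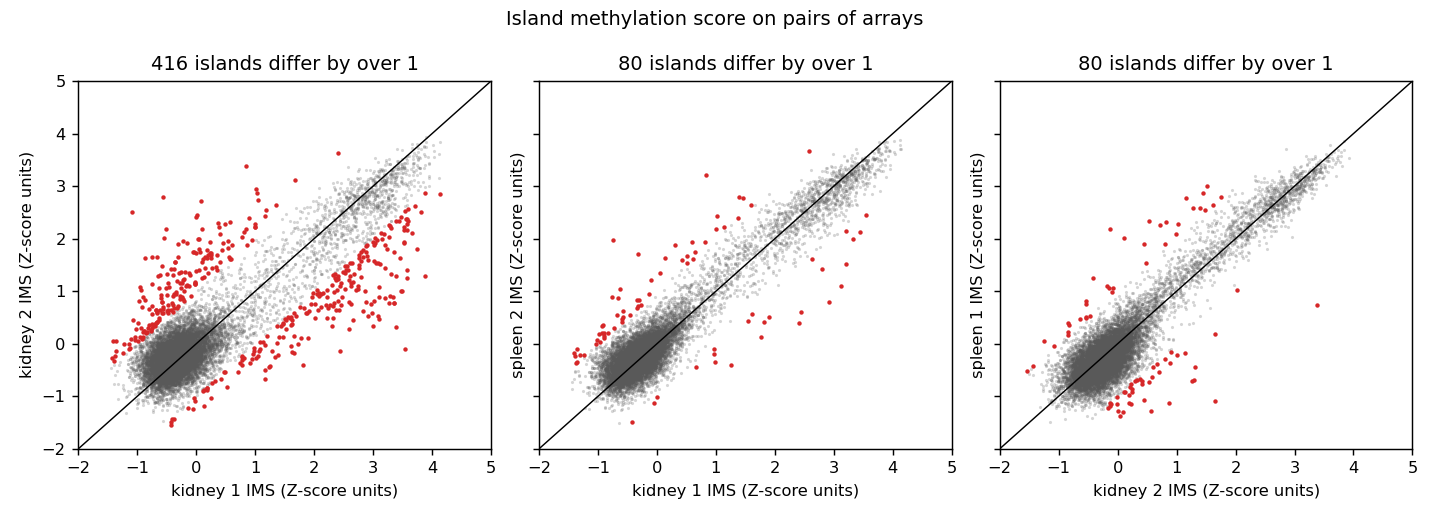
IMS (Z-score units) of 13293 islands on kidney 1 against kidney 2, on kidney 1 against spleen 2 and on kidney 2 against spleen 1. Each point is an island, the line marks equality, and red points differ by more than 1 unit (416, 80 and 80 islands).

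Sex was checked with the 378 islands of the X chromosome, many of which are methylated on the inactive X of females. Their mean IMS was 1.83 on kidney 1 and 1.87 on spleen 1, both labelled female, and 0.247 on kidney 2 and 0.15 on spleen 2, both labelled male, so that on these 4 arrays it followed the sex label. Kidney and spleen of a replicate carry the same sex label, so that this check cannot show an exchange between them. Kidney 1 and spleen 1 lay on 1 slide, and kidney 2 and spleen 2 on another, so that slide, replicate number, scan day, probe grid and sex cannot be told apart within these 4 arrays. The input was well above background at 98.2% of the probes on kidney 1 and 97.9% on spleen 1, but at 77.3% on kidney 2 and 76.5% on spleen 2. Signal over background thus followed the slide. Why the arrays of a label differ was not tested. The tissue of an array is known here from its label alone, and whether samples were exchanged between labels (kidney and spleen, brain and liver, lung and muscle) was not tested. An exchange would change what every value and call by label below stands for, and the values of each array are therefore given.

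With the labels taken as given, no island was called different in kidney. The difference between the mean of the 2 kidney arrays and the mean of the 7 other tissue means was tested with limma on all 16 arrays, and 0 of 13293 islands (0.0%) had a Benjamini-Hochberg adjusted p under 0.05, the lowest adjusted p being 1.0. At an unadjusted p under 0.05 there were 136 islands (1.02%), 74 higher and 62 lower in kidney. Evenly spread p-values would put a share of 0.05 of the islands there, so that 136 is no excess. The p-values thus ran high under this fit, and why was not tested. With the 14 other arrays as 1 group limma gave 93 at an unadjusted p and 0 after adjustment, and the methods' t-test gave 108 and 0. Under the same fit, colon had 109 called islands, pancreas 8 and the remaining tissues 0, and kidney had the fewest islands at an unadjusted p of the 8 tissues. In data simulated with each island's fitted spread and noise independent between arrays, the fit recovered 78.5% of 200 random islands changed by 1 unit. The recovery at islands of wide spread, such as Pax2 (SE 0.49) and Runx1 (SE 0.64), was not assessed separately.

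Both kidney arrays lay beyond all 14 others at 24 islands (0.181%), of which 4 (0.0301%) were higher and 20 (0.15%) lower, and none was called. The distance to the nearest other array was at most 0.127 units. The widest was at Rnf34, a ubiquitin ligase gene (kidney 1 at -0.48, kidney 2 at -0.46). Both lay close to the range of the other arrays, whose lowest value was -0.33. The widest on the upper side was at Letmd1, a mitochondrial membrane protein gene, with -0.16 and -0.26. These islands were picked for their values on the same arrays and are given as a description.

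The result depended on which arrays entered the fit. The fit was repeated without both arrays of a slide, a choice made after seeing the data, and the lone kidney array that remains is then assumed to vary as the arrays of other tissues do. Without kidney 1 and spleen 1, kidney 2 led at Ptx3, which encodes a secreted pentraxin (2.31 ± 0.18, SE), and Pax2 (2.05 ± 0.18). Spleen 1, left out, scored 1.78 and 2.09 there, beside 2.01 and 1.90 on kidney 2. Without kidney 2 and spleen 2, the first islands by p were S1pr4, a sphingosine phosphate receptor of lymphocytes, which was lower on kidney 1 (-2.51 ± 0.22), and Runx1, which was higher (2.97 ± 0.27). Spleen 2, left out, scored 0.80 and 3.03 there, beside 0.07 and 3.39 on kidney 1. Each fit without a slide thus drops the spleen array that scored like the kidney array kept at these islands. The fit without 6 arrays below drops spleen 1 too. Calls from these fits therefore cannot show a difference of kidney from spleen. Without the 6 arrays of 3 slides scanned on 1 day (replicate 1 of brain, kidney, liver, lung, muscle and spleen), 48 islands were called, 46 higher and 2 lower on kidney 2. In that fit just colon and pancreas keep 2 arrays, so that its 2 residual degrees of freedom come from the tissues whose arrays differed least (11 and 106 islands), and the spread assumed for the lone arrays may be too small. Without both spleen arrays, 0 islands were called and 243 had an unadjusted p under 0.05. Without kidney 2 alone, 1 island was called, at Fmnl1, a formin gene expressed in blood cells.

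To show what each kidney array holds, islands were picked on each array that lay at least 0.5 units beyond all 12 arrays of the 6 tissues other than kidney and spleen. This picking was done after the values were seen and carries no test. On kidney 1, 92 islands (0.692%) lay above and 7 (0.0527%) below the 12 arrays. On kidney 2, 26 (0.196%) lay above and 2 (0.015%) below. On spleen 1, 30 (0.226%) lay above and 1 (0.00752%) below, and on spleen 2, 129 (0.97%) lay above and 6 (0.0451%) below. The islands nearest to the limit of 0.5 on kidney 1 were Wnt6, just inside at 0.505, and 2700081O15Rik, just outside at 0.5. On kidney 2, an unnamed island lay just inside at 0.5 and Nexn just outside at 0.494.

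The islands that stood out on kidney 2 included 3 at genes of the kidney developmental list, Pax2, Wt1 and Emx1. At the Pax2 island (chr19:44889230-44890438, 11 probes), which the array annotation places downstream of the gene, kidney 2 scored 1.90 and spleen 1 scored 2.09, whereas kidney 1 scored -0.30 and spleen 2 scored -0.10. The 12 other arrays ranged from -0.37 to 0.00 with a median of -0.13. Pax2 is a paired-box factor required for the nephric duct and its derivatives, and of all 16 arrays just kidney 2 and spleen 1 were above 0 at this island by more than 1 unit. The other Pax2 islands scored, at and inside the start of the gene, were not among those picked.

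At Wt1 (chr2:104931550-104931949, 4 probes), a zinc finger factor of nephron progenitors and podocytes, an island inside the gene scored 0.82 on kidney 2 and 1.05 on spleen 1. Kidney 1 scored -0.97 and spleen 2 scored -0.51, and the 12 arrays ranged from -0.75 to 0.06. With normexp background correction, kidney 2 did not lie above the 12 arrays at Wt1 (its distance to the highest of them was -0.00525). At Emx1 (chr6:85155616-85156384, 8 probes), a homeobox gene expressed in the kidney as well as in the forebrain, an island inside the gene scored 1.08 on kidney 2 and 1.16 on spleen 1. Kidney 1 scored -0.96 there and spleen 2 scored -0.52, with -0.86 to -0.14 on the 12 arrays. At Wt1 and Emx1 kidney 1 thus lay below all 12 arrays and kidney 2 above all 12, and at Pax2 kidney 1 lay within their range.

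Hox genes set position along the body axis. At the Hoxa11 island upstream of the gene (chr6:52178783-52179235, 5 probes), kidney 2 scored 2.51 and spleen 1 scored 2.53. Kidney 1 scored -1.10 and spleen 2 scored -0.61, and the 12 arrays ranged from -1.02 to 1.92, so that the range of other tissues was wide. With normexp background correction kidney 2 lay inside this range. At Hoxd3 (inside the gene), kidney 2 scored 2.42 and spleen 1 scored 2.72, whereas kidney 1 scored -0.01 and spleen 2 scored 0.24, with -0.53 to 1.82 on the 12 arrays.

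Away from transcription factors, the island farthest above the 12 arrays on kidney 2 was at Ptx3 (chr3:66308538-66309060, 5 probes, inside the gene), with 2.01 on kidney 2 and 1.78 on spleen 1. Kidney 1 scored -0.55, spleen 2 scored -0.69 and the 12 arrays -0.50 to 0.05. It was followed after Pax2 and Emx1 by Srcin1, an adaptor protein of neurons and epithelia (2.80 on kidney 2, 2.64 on spleen 1, -0.57 on kidney 1, -0.37 on spleen 2), and Rrad, a small GTPase (1.61, 1.68, 0.12 and 0.26). At the Slc36a4 island, which by the array annotation spans the start of the gene, kidney 2 scored 0.94 and spleen 1 scored 0.78, against -0.35 on kidney 1, -0.23 on spleen 2 and -0.55 to -0.03 on the 12 arrays. Parp2, a DNA repair gene, was the exception among the leading islands, with 0.89 on kidney 2 and -0.36 on spleen 1. It rests on 3 probes, and with another background correction kidney 2 did not lie above the 12 arrays there.

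Over the 26 islands, the median IMS was 1.31 on kidney 2 and 1.18 on spleen 1, but -0.366 on kidney 1 and -0.0363 on spleen 2. Spleen 1 was within 1 unit of kidney 2 at 24 of the 26 islands, whereas kidney 1 was more than 1 unit lower at 23.

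**Figure D3:**
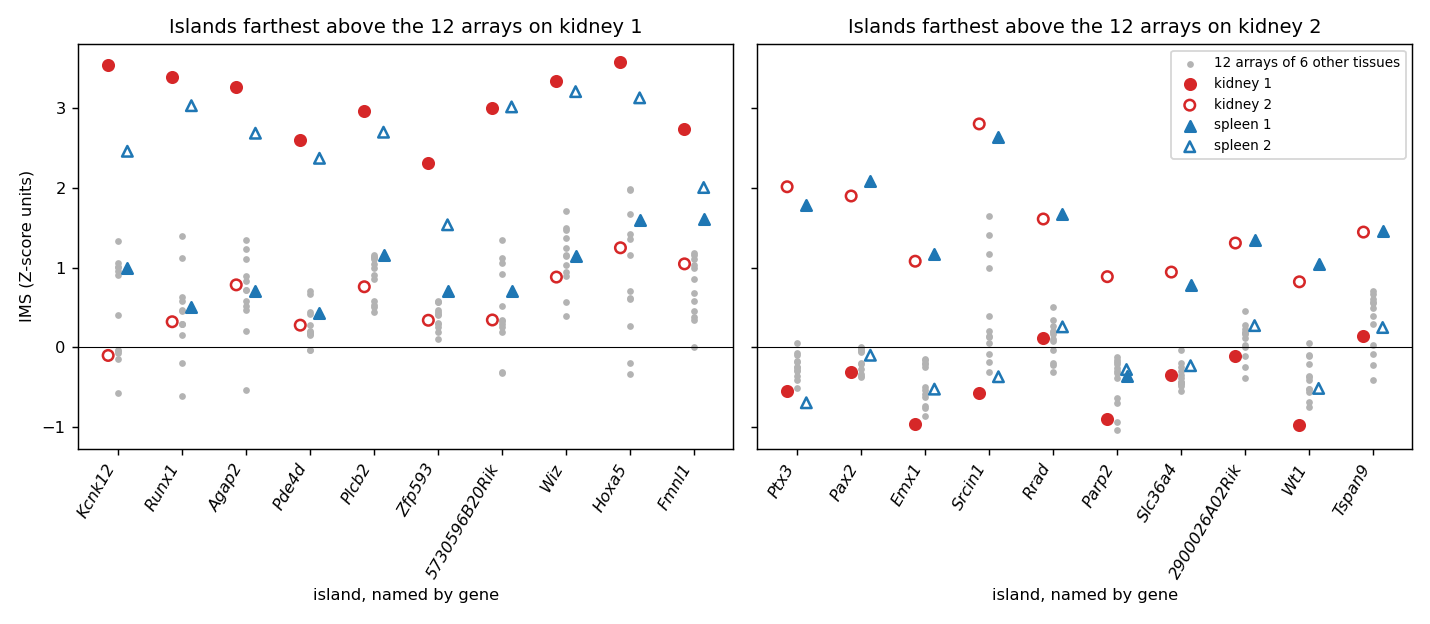
IMS (Z-score units) at the named islands farthest above the 12 arrays of 6 other tissues on kidney 1 (left, 10 genes) and on kidney 2 (right, 10 genes), with kidney as circles, spleen as triangles, replicate 1 filled, replicate 2 open and the 12 arrays as grey points. At Runx1 kidney 1 (3.39) and spleen 2 (3.03) lie above all other arrays, and at Pax2 kidney 2 (1.90) and spleen 1 (2.09) do.

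The islands that stood out on kidney 1 included 4 of the blood and immune list, at Runx1, Spi1, Runx3 and Gata2. At the Runx1 island inside the gene (chr16:92584325-92584657, 3 probes), kidney 1 scored 3.39 and spleen 2 scored 3.03, whereas kidney 2 scored 0.32 and spleen 1 scored 0.51. The 12 other arrays ranged from -0.61 to 1.4 with a median of 0.38. Runx1 is a runt-domain factor required for the formation of blood stem cells. At Spi1, which encodes the myeloid and B cell factor PU.1 (chr2:90915973-90916423, 5 probes), kidney 1 scored 3.11 and spleen 2 scored 3.00, against 0.89 on kidney 2, 1.06 on spleen 1 and 0.37 to 1.70 on the 12 arrays. Gfi1, a zinc finger repressor of blood progenitors that is not on the list, scored 3.36 on kidney 1, 3.26 on spleen 2, 0.77 on kidney 2 and 0.96 on spleen 1.

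Other leading islands of kidney 1 included Plcb2, a phospholipase C of blood cells, with 2.96 on kidney 1, 2.70 on spleen 2, 0.76 on kidney 2 and 1.16 on spleen 1. Gimap1, a GTPase of lymphocytes, scored 3.01, 3.02, 0.81 and 1.00 on the same arrays in the same order. Farther above the 12 arrays than Gfi1 and Gimap1 lay Pde4d (2.60, 2.37, 0.28 and 0.43), Zfp593 (2.31, 1.54, 0.34 and 0.71) and Wiz (3.34, 3.21, 0.88 and 1.15). The island farthest above the 12 arrays lay inside Kcnk12, a potassium channel gene (chr17:87654265-87655196, 8 probes), with 3.54 on kidney 1, 2.46 on spleen 2, -0.10 on kidney 2 and 0.99 on spleen 1. All 3 islands scored at Agap2, which encodes a GTPase-activating protein, were among the 92, with 3.26 to 3.49 on kidney 1 and 0.78 to 0.99 on kidney 2. At Hoxa5, whose start is printed above, kidney 1 scored 3.57 and spleen 2 scored 3.13, against 1.25 on kidney 2 and 1.59 on spleen 1, and at Krt7 the 4 values were 3.45, 3.16, 1.63 and 1.72. At each of these islands kidney 1 and spleen 2 scored higher than kidney 2 and spleen 1. The scores of the latter 2 arrays ran from -0.10 at Kcnk12 to 1.72 at Krt7.

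The 7 islands lower on kidney 1 than on the 12 arrays were led by S1pr4, with 0.07 on kidney 1 and 0.80 on spleen 2, but 2.72 on kidney 2, 2.78 on spleen 1 and 2.07 to 3.00 on the 12 arrays. An island inside Mycn, a proto-oncogene of progenitor cells, scored 1.05 on kidney 1 and 1.22 on spleen 2, against 2.74 on kidney 2, 2.78 on spleen 1 and 2.10 to 3.13 elsewhere. Over the 92 islands above the 12 arrays, the median IMS was 2.74 on kidney 1 and 2.66 on spleen 2, but 0.886 on kidney 2 and 1.15 on spleen 1. Spleen 2 was within 1 unit of kidney 1 at 87 of the 92, whereas kidney 2 was more than 1 unit lower at 77 and lay inside the range of the 12 arrays at 90.

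Kidney and spleen could be compared within each slide, which holds sex, scan day and slide constant. On the slide of replicate 1, 285 islands (2.14%) differed between kidney and spleen by more than 1 unit, and on that of replicate 2, 295 (2.22%) did. At 187 islands the difference was over 1 unit on both slides, and at all 187 its sign was opposite: 103 were higher in kidney on the first slide and lower on the second, and 84 the reverse. At a limit of 0.5 units, 547 islands passed on both slides, 540 with opposite signs and 7 with the same. At Runx1, kidney minus spleen was 2.89 on the slide of replicate 1 and -2.71 on that of replicate 2. At Pax2 it was -2.39 and 2.00, and at Hoxa11 -3.63 and 3.12. No test was run on these differences, since each slide holds 1 array of each label.

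**Figure D4:**
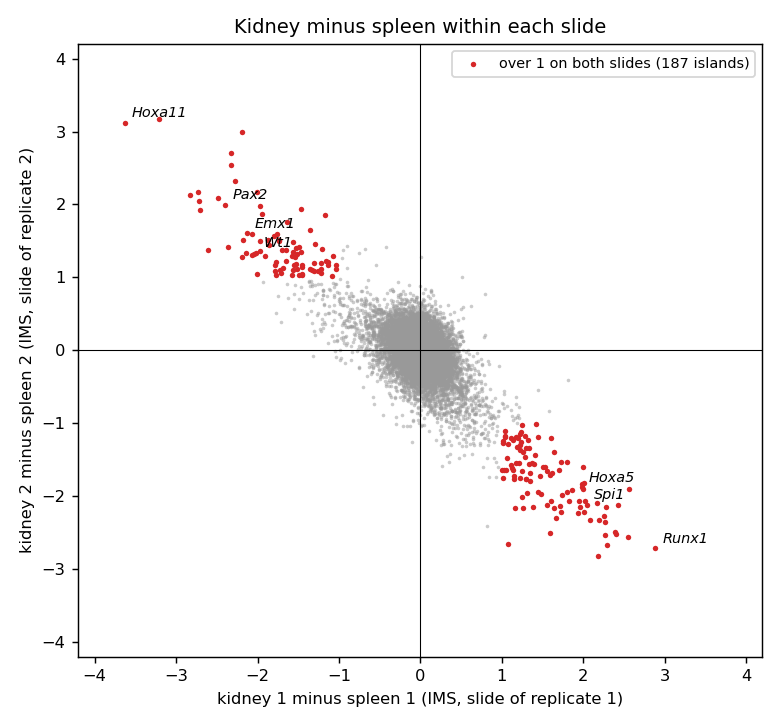
Difference in IMS between kidney and spleen on the slide of replicate 1 (horizontal axis) and on the slide of replicate 2 (vertical axis) for 13293 islands, with the 187 islands over 1 unit on both slides in red. All red points lie in the 2 quadrants of opposite sign, Hoxa11, Pax2, Emx1 and Wt1 in the upper left and Runx1, Spi1 and Hoxa5 in the lower right.

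Lists of genes with a role in the kidney and in other tissues were then followed with the labels as given, and in none of the 16 lists was an island called. For each, the median of the kidney difference over its islands is given beside the median over all 13293 islands, which was -0.02, and the 2 members with the largest difference are named with their values. Over all islands, kidney 1 lay above the 12 arrays by 0.5 at 92 and kidney 2 at 26.

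Of 42 kidney developmental transcription factors, 36 had 87 islands, with a median difference of -0.02. On kidney 2, 3 of these islands lay above the 12 arrays (Pax2, Wt1 and Emx1), and on kidney 1 none did and 1 lay below. The list's islands were more than 1 unit higher on kidney 2 than on kidney 1 at 12 islands (13.8%) and the reverse at 1 (1.15%), at Gata3, against 193 (1.45%) and 223 (1.68%) of all 13293 islands. Beside Pax2 (0.79 ± 0.49, SE), the largest difference was at Nr2f2, an orphan nuclear receptor of mesenchyme (-1.18 ± 0.31). This island inside Nr2f2 was low on both kidney arrays, with -0.26 on kidney 1 and 0.51 on kidney 2, and also on spleen 1 (0.23) and spleen 2 (0.09), whereas the 12 arrays ranged from 0.44 to 2.28. Among members not picked, Lhx1, a LIM factor of the nephric duct, scored 1.56 on kidney 2 and -0.36 on kidney 1, and an island upstream of Emx2 scored 0.95 and -0.38. Spleen 1 lay above the 12 arrays at 5 islands of this list and spleen 2 at 1.

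Genes of the mature nephron had few islands. Of 42 proximal tubule genes, 11 had 12 islands, with a median difference of 0.04. Amn, a partner of the cubilin receptor, scored 1.75 on kidney 2, 1.91 on spleen 1, -0.03 on kidney 1 and -0.11 on spleen 2, within the wide range of -0.41 to 3.09 on the 12 arrays (difference 0.31 ± 0.46). Slc5a1, a sodium and glucose cotransporter, scored 0.75 on kidney 1 and 0.53 on kidney 2 (0.27 ± 0.34). Of 43 genes of the loop of Henle, distal tubule and collecting duct, 23 had 26 islands, with a median of 0.01. Atp6v1b1, the proton pump subunit of intercalated cells, scored 0.99 on kidney 2 and 1.27 on spleen 1, against 0.11 on kidney 1 and -0.23 on spleen 2 (0.59 ± 0.39). Wnk4, a kinase that governs salt transport, scored 0.17 and 0.01 on the kidney arrays (-0.53 ± 0.47).

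Of 28 podocyte and glomerulus genes, 17 had 22 islands, with a median difference of -0.04. Podxl, the sialomucin of podocyte foot processes and of blood vessels, scored 2.10 and 2.11 on the 2 kidney arrays, 2.14 and 2.36 on the spleen arrays and 0.43 to 2.31 elsewhere (0.67 ± 0.23). Here both arrays of the label lay together. Nphs1, which encodes nephrin of the slit diaphragm, scored -0.33 on kidney 1 and 0.56 on kidney 2 (-0.57 ± 0.28). Of 34 genes of nephron induction signalling, 32 had 53 islands, with a median of -0.02, and no island of either kidney array lay beyond the 12 arrays. Their largest differences were 0.33 ± 0.16 at Dll1, a Notch ligand, and -0.32 ± 0.24 at Bmp4, a bone morphogenetic protein.

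The Hox genes were divided by position in their clusters. Of 23 anterior Hox genes (paralogs 1 to 8), 22 had 36 islands, with a median difference of 0.18, and 26 islands (72.2%) were higher in kidney by label, against 42.9% of all islands, none of them called. Kidney 1 lay above the 12 arrays at 5 of these islands, at Hoxa2, Hoxa4, Hoxa5 and Hoxb3 (2 islands), and kidney 2 at 1, at Hoxd3. Spleen 1 did so at 3 and spleen 2 at 5. Between the kidney arrays, however, 11 of the 36 islands (30.6%) were more than 1 unit higher on kidney 2 and 5 (13.9%) on kidney 1. The largest differences were 1.27 ± 0.49 at Hoxa5 and 1.17 ± 0.35 at Hoxb3, where kidney 1 scored 2.88 and kidney 2 scored 1.94. Of 16 posterior Hox genes (paralogs 9 to 13), 15 had 28 islands, with a median of 0.02. Kidney 2 was more than 1 unit above kidney 1 at 7 of the 28 and the reverse at 0, against the 1.45% and 1.68% of all islands given above, with Hoxa11 (0.76 ± 0.96) and Hoxd12 (0.50 ± 0.54) at the head. Both Hox lists had their highest medians, relative to the mean of the 12 arrays, on kidney 2 (0.27 and 0.30) and spleen 1 (0.20 and 0.26), and lower ones on kidney 1 (-0.17 and -0.19) and spleen 2 (0.00 and -0.01).

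**Figure D5:**
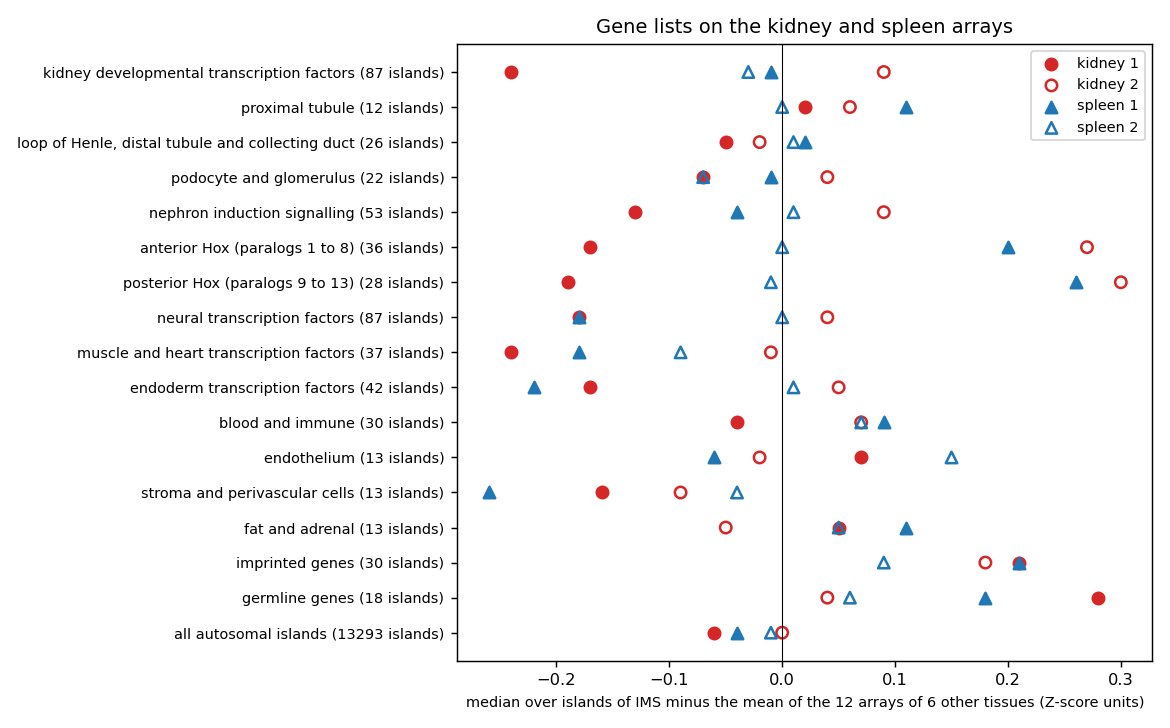
Median, over the islands of each gene list, of the IMS on kidney 1, kidney 2 (circles, filled and open), spleen 1 and spleen 2 (triangles, filled and open) minus the mean of the 12 arrays of 6 other tissues, in Z-score units, with all autosomal islands in the last row. The posterior Hox list stands at 0.30 on kidney 2 and 0.26 on spleen 1 but at -0.19 on kidney 1.

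The lists for other cells that a kidney sample can hold gave the following. Of 23 blood and immune genes, 16 had 30 islands, with a median difference of 0.02. Kidney 1 lay above the 12 arrays at 4 of them (Runx1, Spi1, Runx3 and Gata2), as did spleen 2 at 4, while kidney 2 and spleen 1 did so at 0. The list went both ways between the kidney arrays: 4 of its islands were more than 1 unit higher on kidney 1 (Spi1, Runx3 and 2 of Runx1) and 3 on kidney 2, all at Lyl1, a factor of blood progenitors. By label the differences at Runx1 and Spi1 were 1.25 ± 0.64 and 0.90 ± 0.47. Runx3, a factor of T cells, scored 2.66 on kidney 1 and 1.18 on kidney 2, and Gata2, a factor of blood progenitors, 2.27 and 1.41. The median of the blood and immune list relative to the 12 arrays was -0.04 on kidney 1, 0.07 on kidney 2, 0.09 on spleen 1 and 0.07 on spleen 2. The part of blood cells in these values was not tested, and array values cannot tell a change in the share of a cell type from a change within it.

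Of 17 endothelial genes, 12 had 13 islands, with a median of -0.01. Kidney 1 lay above the 12 arrays at Fli1, an Ets factor of vessels and blood (3.1, against 1.07 on kidney 2, difference 0.71 ± 0.48), and Flt4, a growth factor receptor of lymph vessels, had 0.49 ± 0.25. The 6 stroma and perivascular genes with islands (13 islands) had a median of -0.11, with -0.38 ± 0.29 at Pdgfra and -0.33 ± 0.29 at Nkx3-2. The 7 fat and adrenal genes (13 islands) had a median of -0.09, with -0.32 ± 0.43 at Phox2a and -0.23 ± 0.51 at Ebf2.

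The 35 neural transcription factors with islands (87 islands) had a median difference of -0.02, with the largest at Gbx2 (0.61 ± 0.25) and Lhx3 (-0.36 ± 0.17). The 16 muscle and heart transcription factors (37 islands) had a median of -0.11, with -0.78 ± 0.26 at Gata4, where the kidney arrays scored -0.42 and -0.76, and -0.52 ± 0.53 at Tbx3. The 21 endoderm transcription factors (42 islands) had a median of -0.06. Mnx1, a factor of pancreas and motor neurons, had -0.85 ± 0.28, and Cdx1, an intestinal factor, 0.73 ± 0.28 with 2.99 on kidney 1, 2.10 on kidney 2 and 3.03 on spleen 2, kidney 1 lying above the 12 arrays. The lowest unadjusted p of all islands was at an island of the endoderm factor Foxa2, with -0.96 on kidney 1 and -0.94 on kidney 2 (-0.64 ± 0.12), chosen after its values were seen. At Gata4, Mnx1 and Foxa2 both kidney arrays and both spleen arrays were below 0, whereas both colon arrays were high at all 3 (1.42 and 2.03 at Gata4, 2.69 and 1.96 at Mnx1, 1.97 and 1.84 at Foxa2). Both pancreas arrays were high too at Gata4 (1.59 and 1.23) and Mnx1 (2.69 and 2.84), so that the mean of the other tissues was raised there by colon and pancreas.

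The imprinted genes, methylated on 1 parental copy in every tissue, and the germline genes, kept methylated in somatic cells, served as lists not chosen for an organ. The 22 imprinted genes with islands (30 islands) had a median difference of 0.18, with 0.48 ± 0.43 at Igf2r and 0.43 ± 0.19 at Cdkn1c, and 23 of the 30 islands (76.7%) were higher in kidney by label, against 42.9% of all islands. The 17 germline genes (18 islands) had a median of 0.10, with 0.53 ± 0.24 at Dmc1 and 0.40 ± 0.28 at Tdrd1. Of these 18 islands, 15 (83.3%) were higher in kidney by label, a larger share than in the anterior Hox list (72.2%). The imprinted median was positive on all 4 kidney and spleen arrays (0.21, 0.18, 0.21 and 0.09), and no island of either list was called.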

How the data were processed

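Genomic DNA was enriched by mDIP, and bound (Cy5) and input (Cy3) DNA were hybridized on Agilent mouse CpG island arrays. The authors scanned the arrays with Agilent's Feature Extraction software (background subtraction, linear dye normalization). The deposited scanner files hold, per probe, a log10 ratio (bound to input) and the intensity of both channels and of their background. In the table processed by the authors, each value is a score, the probe Z-score of an array, taken by the methods according to probe Tm. It was used as an alternative, and the Tm step was left out here because no probe sequences were used.

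Log10 ratios of non-control, unflagged probes were standardised within each array. Probes no more than 500 bases apart were joined into islands, those with 3 or more probes were kept, and the probe mean is the IMS. X and Y were dropped (378 islands). Names are those of the arrays' annotation, updated by accession to GRCm38.p6. For 851 islands, the newer probe grid gives another name. In R 4.3.3, lmFit and eBayes of limma 3.58.1 fitted the 8 tissue means, with Benjamini-Hochberg adjustment over 13293 islands. On simulated data, 7.65% of calls were unchanged islands. Other steps used Python 3.11.15, numpy 2.4.6 and pandas 2.3.3. The median input signal of the 16 arrays was 3.07 to 6.98 times its background, and the number of arrays limits the precision.

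Named islands follow a rule: the 12 lowest and 12 highest called islands beyond all other arrays (0 qualified), and from each gene list up to 4 called members or, with none, the 2 with the largest difference. Islands beyond the 12 arrays were chosen after their values were seen. Members and lists were chosen with earlier results of these data known. The replicate numbers do not pair the samples: of 28 correlations between the replicate differences of 2 tissues, 11 were over 0.1 and the lowest was -0.319. The values of 1 withheld item are not reported here.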

Additional observations from a re-analysis of the deposited data

Results flagged for a closer look

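At 187 islands, kidney minus spleen was over 1 unit on the slide of each replicate and opposite in sign. Kidney and spleen carry the same sex label within a slide, female on that of replicate 1 and male on that of replicate 2. Each difference is thus within 1 sex, but the change of sign between the slides coincides with a change of sex. Its cause was not tested. Among 20 leading islands of the kidney arrays, 1 of the 5 embryo arrays stood apart from the others at 3, where chance gives about 1 in 20. It was each time the embryo at 8.5 days post coitum, which was also the only embryo array on its slide, scan day and software version, so that these cannot be told apart from its age. It scored -0.95 at Emx1 (median -0.56), 0.33 at Srcin1 (median -0.44) and 0.22 at Slc36a4 (median -0.43).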

How the results depend on the processing

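The count of 0 called islands was the same in 34 of 38 alternatives, which covered standardisation, background correction, the processed table, filters on probes and islands, test, sex, slide, grid and scan day. Leaving out 1 array gave 0 to 1 called islands and 0 to 1 beyond all other arrays, the 1 being without kidney 2. Without both arrays of the slide of replicate 1 there were 2 and 2, of replicate 2 there were 42 and 41, and without the 6 arrays of shared slides 48 and 40. These rest on 1 kidney array and leave out the spleen array that scored like it at the leading islands. The last takes its spread from colon and pancreas alone. At an unadjusted p there were 70 to 613 islands, against 136. The number of tissues with more calls than kidney was 2, and 2 to 3 with 1 array left out. It was 3 with the processed table and without the slide of replicate 1, 1 with normexp and without the slide of replicate 2, 0 in both fits without colon and pancreas and 7 without the 6 arrays. With the replicate number as a block, 0 islands were called, 154 at an unadjusted p. The numbers do not pair the samples.

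The islands above the 12 arrays on kidney 1 numbered 92, and 92 to 114 with 1 of the 12 left out. There were 53 with the processed table, 46 without dim probes, 46 with at least 5 probes, and 185 and 31 at limits of 0.25 and 1. On kidney 2 they numbered 26, and 26 to 31 with 1 array left out. There were 102 on the log2 scale, 10 with the processed table, 14 without dim probes, 17 with at least 5 probes, 14 with normexp, and 64 and 6 at limits of 0.25 and 1. With normexp, the kidney array no longer passed the edge of the 12 arrays at 5 of 38 named islands. With the distance to that edge, they were Mok (0.0196), Parp2 (-0.122), Wt1 (-0.00525), Nipa1 (0.429) and Hoxa11 (-0.364). Opposite differences between kidney and spleen on both slides were 282 on the log2 scale (with 7 of the same sign), 104 with the processed table, 112 without dim probes and 105 with at least 5 probes, with 0 of the same sign in the other settings.

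Of 32 named differences, 15 changed sign under some alternative. Without the slide of replicate 2 they were -0.46 at Pax2, -0.73 at Amn, -1.27 at Hoxa11, -0.57 at Hoxd12 and 0.15 at Phox2a. Without the slide of replicate 1 they were 0.17 at Bmp4, -0.00163 at Hoxa5, 0.18 at Tbx3, -0.46 at Runx1, -0.35 at Spi1, -0.44 at Fli1, -0.10 at Flt4 and 0.12 at Ebf2. Without the 6 arrays they were 0.18 at Bmp4, 0.15 at Tbx3, -0.48 at Runx1, -0.30 at Spi1, -0.36 at Fli1 and -0.0334 at Flt4. Hoxd12 was -0.12 with normexp, and Wnk4 was 0.0913 with scan day as a block. With 1 array left out, the difference ranged from -0.31 to 1.89 at Pax2, -0.59 to 1.20 at Amn, -0.81 to 0.17 at Bmp4, -1.05 to 2.57 at Hoxa11, -0.41 to 1.41 at Hoxd12, -1.21 to 0.17 at Tbx3, -0.28 to 2.79 at Runx1, -0.21 to 2.01 at Spi1, -0.31 to 1.72 at Fli1, -0.0552 to 1.04 at Flt4, -0.80 to 0.0495 at Pdgfra, -0.82 to 0.18 at Phox2a and -0.54 to 0.0853 at Ebf2. These sign changes came from leaving out a kidney array. The cause of the other changes was not tested.

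Slide and scan day could not be fitted as blocks over all tissues, all adult arrays share 1 software version, and normexp was run on median signals because some files lack mean signals. The leave-outs of slides, normexp on medians, the probe grid and the limits were chosen after seeing the data.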

Other observations

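The islands of the kidney arrays were also scored on 5 arrays of post-implantation embryos, 1 each at 8.5, 9.5, 10.5, 11.5 and 12.5 days post coitum, made with other versions of the scanner software. The embryo at 12.5 days was labelled female and the others male. Kidney 1 lay above all 5 embryo arrays at 90 of 91 islands picked as above the 12 adult arrays, and kidney 2 did so at all 26, against 18.5% and 20.3% of all 13278 islands with values on the 5 embryo arrays. The islands were picked because the same kidney array was high on them, which largely fixes these counts, and they are given as a description. The median over the islands of the embryo median was 0.276 for the first set and -0.237 for the second. At Runx1 the embryo median was -0.31, at Hoxa5 -0.50, at Pax2 -0.19 and at Hoxa11 -0.62. At Krt7 it was higher, at 1.99, between kidney 2 (1.63) and kidney 1 (3.45).

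By the array annotation, 63.0% of the 92 islands of kidney 1 and 61.5% of the 26 of kidney 2 lay inside genes, against 62.3% of all islands. Promoters made up 15.2% and 7.69%, against 18.2% of all.

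Between the kidney arrays, 223 islands (1.68% of all 13293) were more than 1 unit higher on kidney 1 and 193 (1.45%) on kidney 2. Hox genes held 5 of the former and 18 of the latter, out of 64 Hox islands scored. The median IMS of the 223 islands was 2.41 on kidney 1, 2.27 on spleen 2, 1.16 on spleen 1 and 0.787 on kidney 2. That of the 193 was -0.35, 0.0688, 1.14 and 1.15 in the same order.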
